A study of Mus musculus with 2 samples.

Results

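Genes of 14 families of developmental transcription factors were examined in a map of Dnmt1 on the DNA of cleavage-stage mouse embryos: Sox, Fox, Pax, Tbx, Hox, Dlx, Lhx, Irx, Nkx, Pou, Zic, Meis, Pbx and the sine oculis family of Six4. Their peaks were taken by the gene name that the deposited peak table gives, which begins with a family name and a number. Sox2, Sox7, Sox17, Foxa2, Tbx3 and Pou5f1, known for the first lineages of the embryo, were left out and are compared at the end. The rule took 104 of the 8226 listed peaks, under 54 gene names. Of these names, 53 belong to the families as RefSeq names them today. The other, Six6os1, is listed by RefSeq as 4930447C04Rik and was named for lying opposite Six6. Pou2af1 also carries the family prefix but encodes a coactivator of POU proteins, not a POU protein.

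The map was made by DamID, in which a protein of interest is fused to Dam, a bacterial enzyme that methylates adenine in the sequence GATC, so that the fusion leaves a mark where it has been. One group carried Dnmt1, the methyltransferase that copies DNA methylation after replication, fused to a V5 tag and Dam, and the other carried Dam alone, which marks accessible DNA. Each construct was injected into embryos of the strain BCF1 (C57BL/6 x CBA/CA) grown from zygotes of superovulated females aged 5 weeks, and genomic DNA was taken from 50 embryos per group at the 4- to 8-cell stage. Each group is therefore 1 library from 50 embryos in which an injected fusion, and not the embryo's own Dnmt1, left the mark. No replicate spread exists and no test between the groups was possible. The deposited table gives 1 height per library at each peak, written below as the Dnmt1-Dam height against the Dam-only height. It lists only positions with a Dnmt1-Dam height of at least 7, at least 6 above and at least 2 times the Dam-only height. A Dam-only height of 1 is the smallest listed.

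The families are named for their DNA-binding domains or for the fly genes they resemble. Sox proteins bind DNA with an HMG box, Fox proteins with a forkhead domain, Tbx proteins with a T-box and Zic proteins with zinc fingers. Pax proteins carry a paired domain. Hox, Dlx, Lhx, Irx, Nkx, Pou, Meis and Pbx proteins and Six4 and its relatives carry homeodomains, and Meis and Pbx act as partners of Hox proteins. Many of these genes pattern the body axis, the nervous system and the limbs after implantation. Many are small genes with CpG-rich promoters, set in long stretches of DNA without other genes, where distant enhancers lie. Dnmt1 is known to act on hemimethylated CpG sites. All positions and distances of peaks below are in mm9 coordinates, and distances are counted from the start site that the deposited table uses, with negative values upstream.

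In all, 4 genes of the families had a peak in a promoter class, defined by the table as -10 to 1 kb around the start site: Nkx2-9, Lhx4, Tbx4 and Pou2f2. Their promoter sequences are shown because these are the family genes whose peaks came closest to a promoter from the upstream side. Each is the 250 bases before the RefSeq start site in build GRCm38.p6, 5′ to 3′ on the strand of the gene, with GATC, the sequence that Dam methylates, in capitals. The windows are chr12:56613285-56613534 (minus strand) for Nkx2-9, chr1:155742028-155742277 (minus strand) for Lhx4, chr11:85896515-85896764 (plus strand) for Tbx4 and chr7:25132461-25132710 (minus strand) for Pou2f2.
Nkx2-9: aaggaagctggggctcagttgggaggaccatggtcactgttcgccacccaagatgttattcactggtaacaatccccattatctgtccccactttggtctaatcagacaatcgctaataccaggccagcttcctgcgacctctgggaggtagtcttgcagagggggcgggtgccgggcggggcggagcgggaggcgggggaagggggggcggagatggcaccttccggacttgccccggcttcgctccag
Lhx4: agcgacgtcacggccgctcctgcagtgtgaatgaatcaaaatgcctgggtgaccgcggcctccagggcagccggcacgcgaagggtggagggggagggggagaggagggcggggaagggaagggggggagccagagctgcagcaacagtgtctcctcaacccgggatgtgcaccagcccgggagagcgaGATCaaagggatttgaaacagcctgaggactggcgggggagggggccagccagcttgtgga
Tbx4: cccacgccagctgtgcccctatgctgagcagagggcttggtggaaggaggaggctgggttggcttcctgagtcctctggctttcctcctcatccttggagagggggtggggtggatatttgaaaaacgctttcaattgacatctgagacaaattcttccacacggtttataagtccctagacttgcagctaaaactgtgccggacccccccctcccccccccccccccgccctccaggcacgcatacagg
Pou2f2: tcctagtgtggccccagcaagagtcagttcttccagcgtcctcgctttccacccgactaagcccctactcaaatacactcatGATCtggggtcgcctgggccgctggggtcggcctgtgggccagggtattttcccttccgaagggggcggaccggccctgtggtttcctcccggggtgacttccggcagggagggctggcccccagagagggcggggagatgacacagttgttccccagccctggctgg

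GATC occurred 1 time each in the windows of Lhx4 and Pou2f2 and was not in those of Nkx2-9 and Tbx4. Among all 32851 RefSeq promoter windows of this length, 41.9% hold it. The dinucleotide CG occurred 14 times in the Lhx4 window, 13 in Nkx2-9, 12 in Pou2f2 and 6 in Tbx4, against a median of 6 over all windows (interquartile range 2 to 16). The motif GGGCGG, the GC box, was searched on both strands. It occurred 4 times in Nkx2-9, 2 times in Pou2f2 and 1 time each in Lhx4 and Tbx4, and 32.7% of all windows hold it. CCAAT, searched on both strands, was in none of these 4 windows, and 33.8% of all windows hold it. Over the families as a whole, 148 windows of 124 genes were matched by symbol, with a median of 13 CG and a median GC content of 60.8%, against 52.4% over all windows. The windows of family genes with a peak and of those without had medians of 13 and 14 CG.

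The peaks of these 4 promoters lay outside the windows shown. Nkx2-9, a homeobox gene of the ventral neural tube, held the only proximal promoter peak of the families, at -2.37 kb (chromosome 12, position 57716641), of height 9 against 3. In Lhx4, a LIM-homeodomain gene of pituitary and motor neuron development, the promoter peak was at -5.81 kb (chromosome 1, 157594971; 10 against 3). Tbx4, a T-box gene of the hindlimb and lung, had its promoter peak at -7.96 kb in a SINE (chromosome 11, 85695601; 7 against 1). At Pou2f2, which encodes the lymphoid factor Oct2, the promoter peak was at -9.82 kb in a LINE (chromosome 7, 25927301; 8 against 1). The heights of 7 to 10 lay within the interquartile range of all peaks (7 to 11), and at Nkx2-9 and Lhx4 the Dam-only library was also above its lowest value. Among all family peaks, 11 of 104 had a Dam-only height of 3 or more (10.6%, exact 95% Clopper-Pearson interval 5.40 to 18.1), as did 11.7% of all peaks. The 4 genes are 2.15% of the 186 family genes in the RefSeq table (0.589 to 5.41). Over all 21035 genes with a curated messenger RNA, 2.42% had a promoter peak.

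Away from promoters, most family peaks were distant from the gene. In all, 80 of the 104 were intergenic peaks beyond the promoter limits, here called distant (76.9%, 67.6 to 84.6), 20 lay in gene bodies (19.2%, 12.2 to 28.1) and 4 in promoters (3.85%, 1.06 to 9.56). Over all listed peaks the shares were 50.8% distant, 42.5% in bodies and 6.73% in promoters. The intervals of the family shares did not include the shares of all peaks for distant and body peaks, and did for promoters. More than 100 kb outside the assigned gene lay 48 of the 104 family peaks (46.2%, 36.3 to 56.2), where 23.1% of all peaks lay that far. No p-value was computed, since the genes were chosen as a group and peaks of 1 gene are not independent. The table assigns each peak to 1 gene, and for a distant peak that assignment shows which gene it was listed under, not that the gene is affected.

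The length of the genes moved with this. The family genes with a peak had a median length of 7.40 kb, against 41.6 kb over all genes with a peak. Both medians cover only genes with a listed peak and depend on how many have a body peak. Over the whole list the median was 81.0 kb for genes with a body peak and 21.1 kb for those without. In the families these medians were 179 and 5.49 kb. The part of gene length in the location shares was not tested. Per Mb of the bodies of the 54 genes there were 5.31 body peaks (exact 95% Poisson interval 3.24 to 8.19), and over the bodies of all genes with a peak there were 7.16, a value inside that interval. Bodies of genes without a listed peak enter neither density. Intervals throughout cover counting error only.

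In terms of genes, 53 of 186 family genes (28.5%, 22.1 to 35.6) had at least 1 listed peak, where the background over all genes was 22.7%. A body peak was found in 13 of 186 (6.99%, 3.77 to 11.7), against 11.5% of all genes, and a distant peak in 45 of 186 (24.2%, 18.2 to 31.0), against 11.8%. The share with any peak thus had an interval that includes the background, the share with a body peak likewise, and the share with a distant peak did not. Family genes were found by deposited gene name, and the background by RefSeq name. With RefSeq names for all peaks, 57 family gene names had a peak, against 54.

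**Figure D1:**
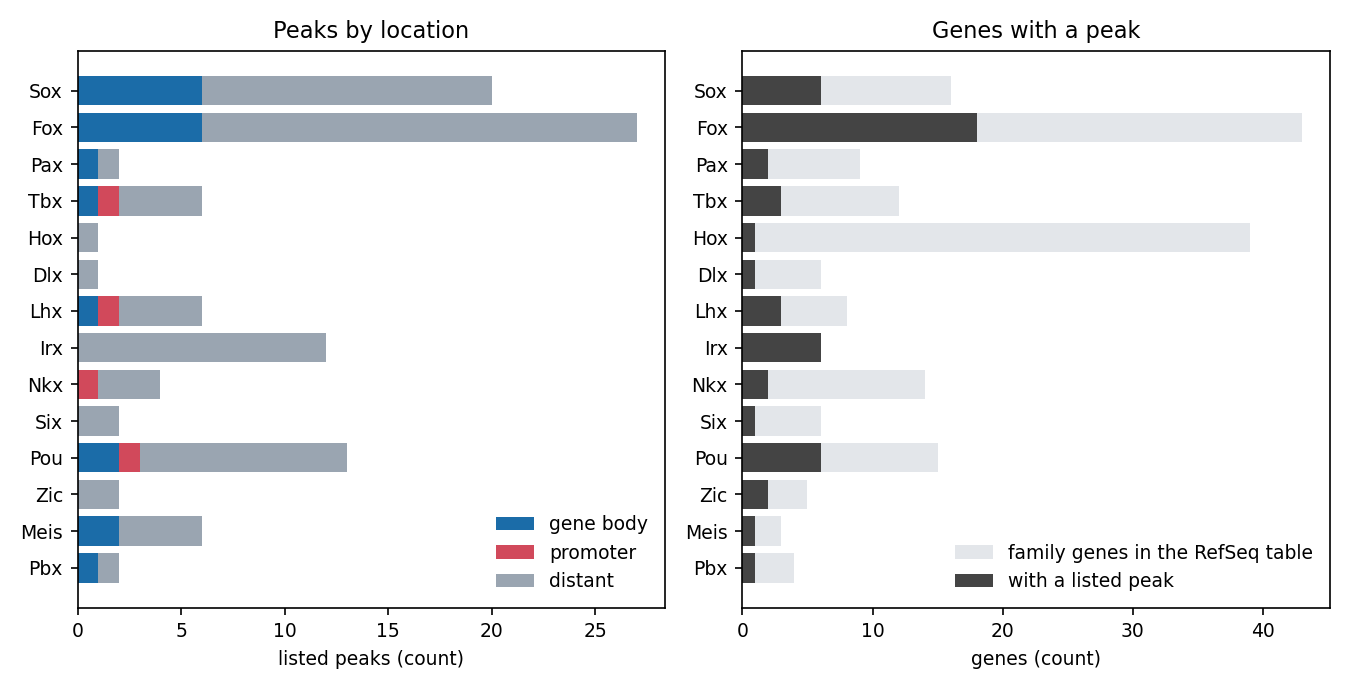
Listed peaks of each family by location (left, count of peaks) and the number of its genes in the RefSeq table with at least 1 listed peak (right, dark bars, over all its genes in pale). Peaks were taken by deposited gene name. Irx has a peak at 6 of 6 genes and all 12 peaks are distant, while Hox has a peak at 1 of 39.

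The families differed widely in how many of their genes had a peak. Among Hox genes, which specify position along the body axis and lie in 4 tight clusters, 1 of 39 had one (2.56%, 0.0649 to 13.5). This was Hoxc4, with a peak of height 7 against 1, the lowest listed, in a CpG island 56.8 kb from its start site on the downstream side (chromosome 15, 102921661). No Hox gene had a peak in the body or promoter (0 to 9.03% for each), where 11.5% and 2.42% of all genes did. Genes of 1 cluster lie close together, so the 39 are not independent chances to find a peak. In contrast, each of the 6 Irx genes had a peak. The Irx genes are clustered too, so they are not independent chances either. Between these extremes were Fox with 18 of 43 genes (41.9%, 27.0 to 57.9), Pou with 6 of 15 (Pou2af1 counted), Zic with 2 of 5, Sox with 6 of 16 and Lhx with 3 of 8. Meis had a peak at 1 of 3 genes, Pbx at 1 of 4, Tbx at 3 of 12, Pax at 2 of 9, Dlx at 1 of 6, the Six4 family at 1 of 6 and Nkx at 2 of 14. These counts go by deposited gene name, which misses Meis2. With RefSeq names for all peaks, 2 Meis genes and 20 Fox names had a peak, the latter including the non-coding Foxl2os. Against a background of 22.7%, the interval of Hox lies below and those of Fox and Irx (54.1 to 100) above, and the intervals of the other families contain it. With heights of 9 or more, 11 Fox, 3 Irx and 0 Hox genes kept a peak. Counting peaks in the gene or within 10 kb of it, 5 Fox, 0 Irx and 0 Hox genes did. Under that rule 14.7% of all genes had a peak. The intervals of Fox (11.6%, 3.89 to 25.1) and Irx (0 to 45.9) contain this share, and that of Hox (0 to 9.03) lies below it. With 14 families looked at and no test of the differences, these are descriptions.

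Among the 54 family genes with a peak, peaks inside gene bodies lay mostly in the long genes. Genes without a listed peak are not in the lengths given here. Of the 20 body peaks, 18 (90%) lay in genes longer than 80 kb, which make up 86.8% of the body length of the 54 genes. Over the whole list such genes held 60.2% of the body peaks and 82.1% of the body length of genes with a peak. Of the 14 genes of that length among these 54, 11 had a body peak, and Foxo1, Tbx15 and Foxp2 did not. Long family genes without any listed peak cannot enter this count. The same share was not computed for all genes over 80 kb with a peak, so 11 of 14 shows no difference from them. The 29 genes of up to 10 kb held 52 peaks, of which 51 were distant and 1, that of Nkx2-9, was in a promoter. Genes this short have little body in which a peak could lie. The same share over all short genes was not computed, so these counts show no trait of the families. More than 15 kb from the start site lay 16 of the 20 body peaks (80%), against 76% of all body peaks, and 2 were within 5 kb (10%), against 7.79%.

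Sox5 and Sox6 are the long genes of the Sox families, SoxD factors that act in cartilage and in neuron and glial development. Sox5 (377 kb) held 4 body peaks on chromosome 6. The pair near its start lay at 18.2 and 19.1 kb, with heights of 9 against 1 and 11 against 1. The pair farther in lay at 313 kb, in a SINE (14 against 1), and at 342 kb (7 against 1). The remaining Sox5 peak was at -390 kb, also in a SINE (11 against 1). In Sox6 (524 kb) both body peaks, at 205 and 267 kb, were at the lowest height, 7 against 1. The highest peak of all the families was also assigned to Sox6. It reached 41 against 1 on chromosome 7 at 122587101, in DNA with no repeat named, 27.8 kb beyond the end of the gene. It stood apart from the rest, since the next highest family peak reached 22.

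Among forkhead genes, the body peaks belonged to Foxp1, Foxn3, Foxj3 and Foxo3a. Foxp1, a repressor active in heart, lymphocyte and neuron development, held 3 in its 233 kb body on chromosome 6. They lay at 51.4 kb in an LTR element (12 against 2), at 125 kb (9 against 1) and at 167 kb (9 against 1). Both of its upstream peaks were taller than the last 2 of these, with 11 against 1 in a SINE at -123 kb and 16 against 1 at -195 kb. Foxn3 had a peak of 8 against 1 at 68.1 kb inside the gene and one of the same heights at -130 kb in a DNA transposon. In Foxj3 the peak was at 9.63 kb (9 against 1). Foxo3a, the file's name for Foxo3, a target of insulin signaling, had one at 2.25 kb (7 against 1), the nearest body peak to a start site in the families, and one at -11.3 kb (8 against 1). No Fox gene had a promoter peak among the 43 (0 to 8.22%), and this interval also contains the 2.42% of all genes with one.

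Meis1, a TALE homeodomain partner of Hox proteins in limb and blood development, had the most peaks of any member, with 6 on chromosome 11. With peaks up to 1 kb apart counted as 1 run, it had 5, as did Foxp1 and Sox4. Inside the gene a peak of 22 against 2 in a LINE at 25.7 kb stood next to one of 9 against 3 in an LTR element at 24.3 kb. Upstream, at -127 kb, a pair 120 bp apart reached 12 against 1 in a SINE and 15 against 1 outside repeats. The remaining upstream peaks were low, at -339 kb in a LINE (7 against 1) and at -375 kb (9 against 1).

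Other genes had a single body peak. Lhx2, a LIM-homeodomain gene of eye and forebrain, had a peak of 12 against 1 at 3.19 kb, in the shortest gene with a body peak (18.4 kb). Pou2f1, which encodes the broadly expressed factor Oct1, had one of 10 against 1 in a DNA transposon at 66.0 kb. In Pax5, the B cell commitment factor, it was 7 against 1 at 111 kb, and in Tbx4 it was 7 against 1 at 11.7 kb. The last 2 are thus at the lowest height in the list. The Tbx4 body peak was measured from the start of another, shorter transcript than its promoter peak. That start lies farther downstream, so the distances of these Tbx4 peaks are not from 1 start site.

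**Figure D2:**
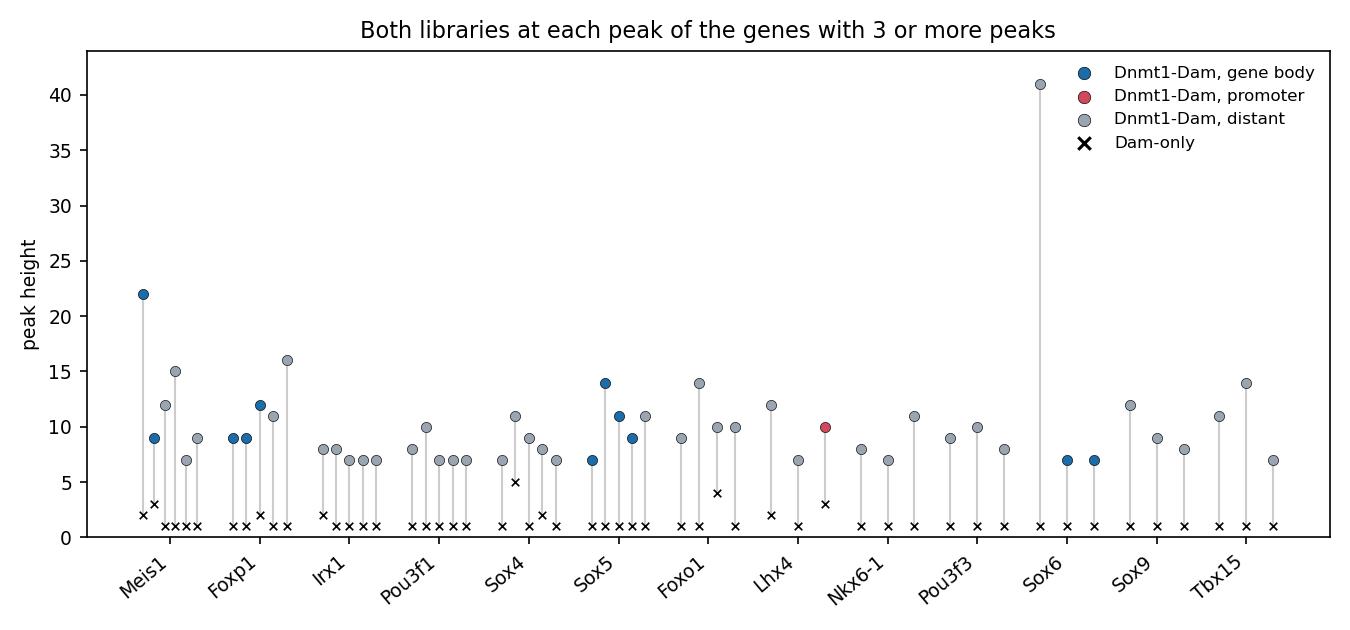
Peak height in the Dnmt1-Dam library (circles, colored by location) and in the Dam-only library (crosses) at each peak of the 13 genes with 3 or more peaks, in order of position within a gene. The Sox6 peak of 41 against 1 stands above the others, and most Dam-only heights are 1.

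Of the 80 distant peaks, 35 (43.8%) belonged to the 9 genes with 3 or more distant peaks each, where over the whole list such genes held 35.4% of the distant peaks. By distance, of the 80 distant peaks, 4 lay within 10 kb of the gene, 28 at 10 to 100 kb, 30 at 100 to 250 kb and 18 farther out, with a median of 134 kb (interquartile range 45.8 to 236) against 80.5 kb over all distant peaks (26.9 to 240). They lay on both sides of the genes, with 44 upstream and 36 downstream (55.0% upstream, 43.5 to 66.2), where 58.3% of all distant peaks were upstream.

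The Irx genes, Iroquois homeobox genes that pattern the nervous system and heart, form a pair of clusters with 3 genes each, and all 12 of their peaks were distant. Around Irx1, Irx2 and Irx4 on chromosome 13, 8 peaks spread over 1.60 Mb, and 5 of them lay between the outer ends of the cluster. Irx1 had 5 of these, with heights from 7 to 8 and Dam-only heights from 1 to 2, at 517, 292 and 209 kb downstream and at -219 and -220 kb upstream. Irx2 had a peak of 14 against 5 at -232 kb and one of 8 against 2 at -175 kb, and Irx4 one of 7 against 1 at -217 kb. The tallest of this cluster therefore also had one of the highest Dam-only values of the families. Around Irx3, Irx5 and Irx6 on chromosome 8, all 4 peaks lay between the outer ends. They were 8 against 1 at -177 kb and 7 against 1 at -258 kb from Irx3, 12 against 1 in the shelf of a CpG island 40.6 kb downstream of the Irx5 start, and 12 against 4 at -126 kb from Irx6. Of the 12 Irx peaks, 11 were more than 100 kb outside the assigned gene, where 46.2% of family peaks and 23.1% of all peaks lay that far. Peaks of the same cluster are not independent.

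**Figure D3:**
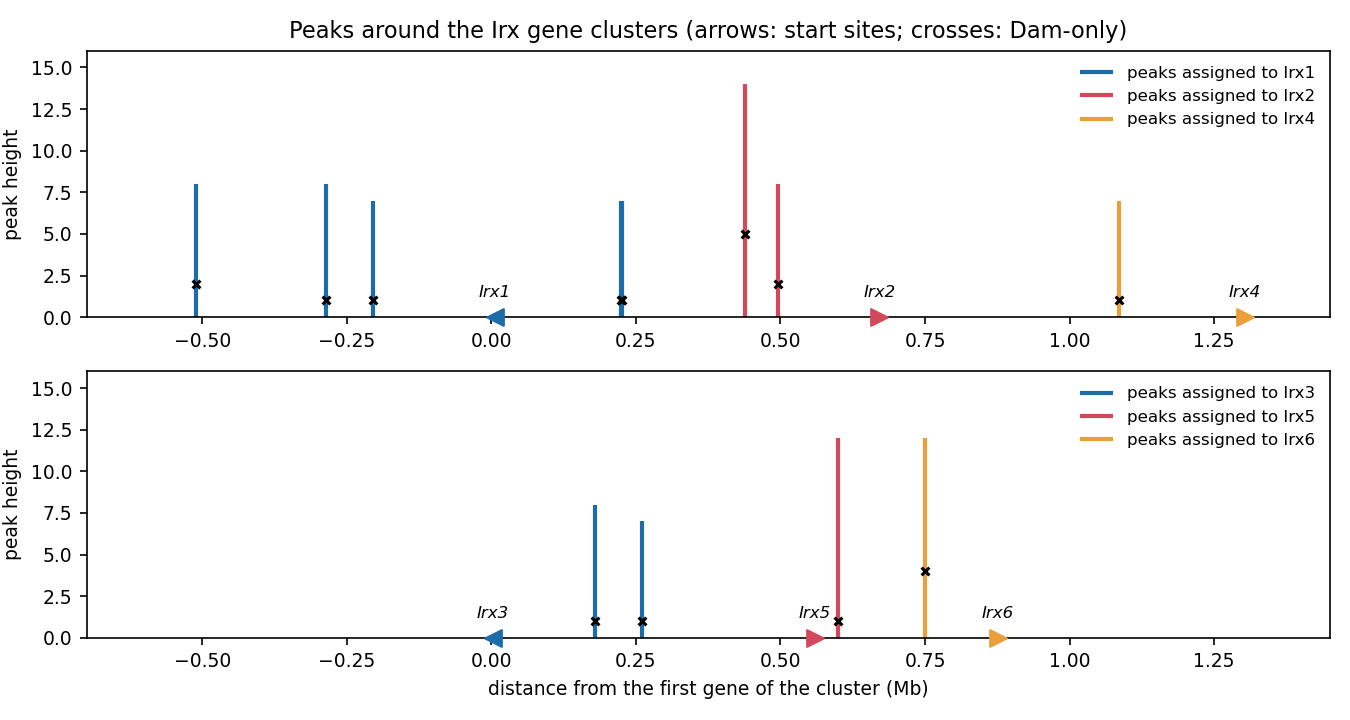
Peaks around both Irx clusters by distance from the first gene of the cluster (Mb), with the Dnmt1-Dam height as bars in the color of the assigned gene, the Dam-only height as crosses and the start sites as arrows. No bar falls on a gene. The Irx1 pair 760 bp apart appears as 1 bar.

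The other Sox genes with peaks were short and had only distant ones. Sox4, a SoxC factor of heart and neuron development, had 5 on chromosome 13. Those at 213, 243 and 257 kb downstream of the start were 9 against 1, 11 against 5 and 7 against 1, and those at -83.8 and -329 kb were 8 against 2 and 7 against 1. Sox9, the factor of cartilage and testis, had 3 on the downstream side, where the height was 12 against 1 at 39.5 kb, 9 against 1 at 130 kb and 8 against 1 in a SINE at 265 kb. The SoxB1 genes of the neural plate were also marked far out. Sox3, on the X chromosome, had a pair 90 bp apart at -282 kb, of 12 against 1 and 21 against 1, the third highest of the families. Sox1 had 10 against 2 at -145 kb and 8 against 1 in a CpG island shore at 33.0 kb. No Sox gene of the 16 had a promoter peak (0 to 20.6%), an interval that contains the 2.42% of all genes with one.

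Of the forkhead genes with distant peaks, Foxo1, a target of insulin signaling, had the most, with 4 downstream of its start on chromosome 3. They were 9 against 1 in a CpG island shore at 199 kb, 14 against 1 at 218 kb and a pair 100 bp apart at 294 kb of 10 against 4 and 10 against 1. The pair shows the Dam-only height falling from 4 to 1 over 100 bp at an equal Dnmt1-Dam height. Foxc1 and Foxf2, mesenchymal factors encoded next to each other on chromosome 13, had peaks 32.6 kb apart and each of 9 against 2, at -83.9 kb from Foxc1 in an LTR element and a CpG island shelf, and at 64.4 kb from Foxf2 in a LINE. These were the only peaks of different family genes within 50 kb of each other. Foxa1, a pioneer factor of endoderm, had 11 against 1 at 22.3 kb. Foxb1 and Foxb2, genes of the early nervous system, had 10 against 4 in a SINE at -47.6 kb and 11 against 4 at -56.5 kb, so both had an elevated Dam-only height. The other Fox genes with a peak were Foxd1, Foxd3, Foxe1, Foxe3, Foxf1a, Foxk1, Foxo6 and Foxp2, with 1 distant peak each, heights from 7 to 10 and Dam-only heights from 1 to 3.

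The POU genes of class III, Pou3f1 and Pou3f3, which act in neural and glial development, had 8 upstream peaks between them. Pou3f1 had 5 on chromosome 4, or 3 with peaks up to 1 kb apart counted as 1 run. A pair at -364 kb reached 8 against 1 and 10 against 1, one at -199 kb 7 against 1, and a pair in LTR sequence at -94.9 and -94.8 kb 7 against 1 each. Pou3f3 had 9 against 1 in a LINE at -494 kb, 10 against 1 in a SINE at -387 kb and 8 against 1 at -23.8 kb. All 13 POU peaks, including 7 against 1 and 9 against 1 at 63.3 and 211 kb from Pou2af1, had a Dam-only height of 1, and none was above 10. The interval of the share at a Dam-only height of 1 (75.3 to 100%) contains the 75.8% of all peaks.

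Lhx5, a LIM-homeodomain gene of the forebrain, had a pair 80 bp apart just beyond the promoter limit at -12.1 and -12.0 kb (12 against 1 and 8 against 1). Lhx4 had peaks on the other side of the gene as well, 41.6 and 46.8 kb from its start, of 7 against 1 and 12 against 2. Nkx6-1, a factor of motor neurons and beta cells, had 11 against 1, 7 against 1 in a LINE and 8 against 1 in a SINE at 195, 247 and 317 kb. At Tbx15, a T-box gene of skeleton and skin, peaks of 11 against 1, 14 against 1 and 7 against 1 lay at 207, 261 and 282 kb, the outer pair in LTR elements. Tbx19, a pituitary factor, had 7 against 1 at 80.4 kb. Six4, a gene of muscle and sensory organs, had 10 against 1 at 17.4 kb, and Six6os1 had 17 against 1 in a SINE at 77.2 kb, the fourth highest of the families. Pax2, a factor of kidney and optic development, had 7 against 1 at -30.2 kb. Dlx2, a factor of forebrain interneurons and the jaw, had 10 against 3 at -11.0 kb. Zic1, a factor of the neural plate, had 7 against 1 at 333 kb.

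**Figure D4:**
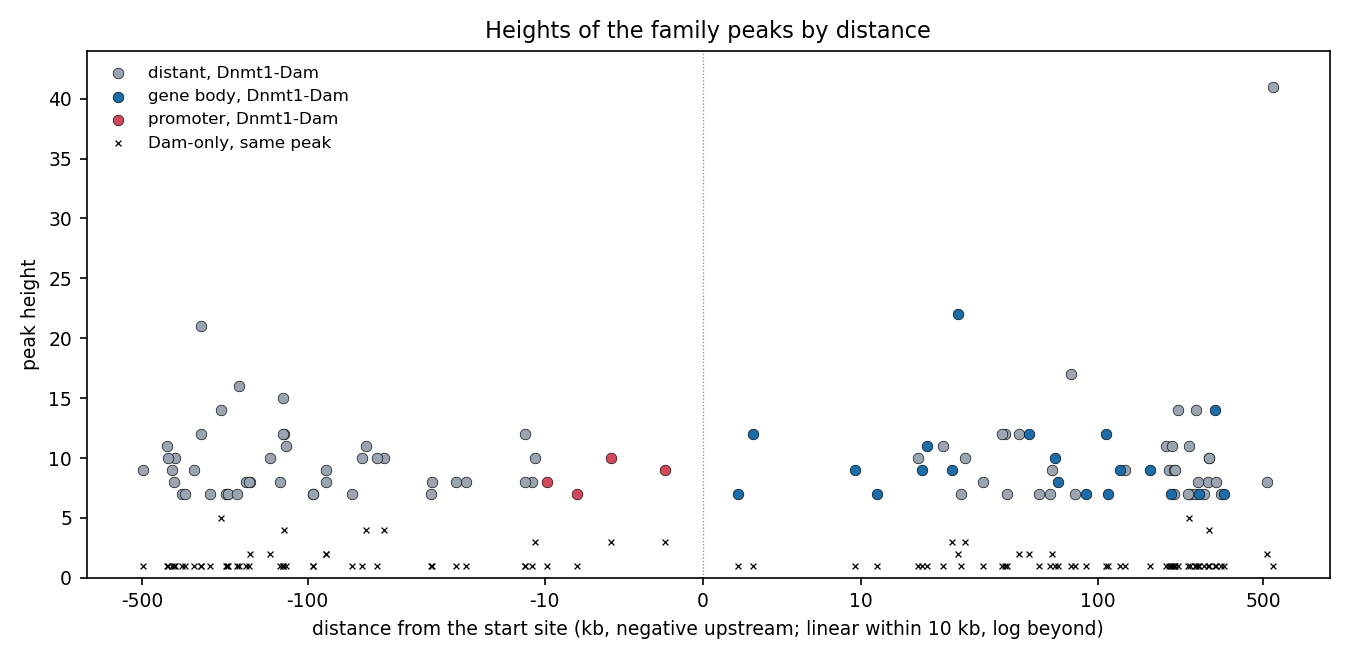
Dnmt1-Dam height (circles, colored by location) and Dam-only height (crosses) of the 104 family peaks by distance from the start site in kb, linear within 10 kb and logarithmic beyond. Distant peaks reach to -494 kb upstream and 551 kb downstream, and no peak lies within 2 kb of a start site.

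In height, the family peaks were like the list as a whole. The median Dnmt1-Dam height was 9 (interquartile range 7 to 11), as over all peaks, and 30 of 104 (28.8%, 20.4 to 38.6) were at 7, against 26.8%. The median was 9 for body peaks, 8.5 for the 4 promoter peaks and 9 for distant ones. A height of 15 or more was reached by 6 peaks (5.77%, 2.15 to 12.1), where 8.66% of all peaks reached it. They belonged to Sox6, Meis1 (2 peaks), Sox3, Six6os1 and Foxp1, and 5 of them were distant. At 29 peaks (27.9%, 19.5 to 37.5) the Dnmt1-Dam height was 10 or more times the Dam-only height, against 23.4% of all peaks. The Dam-only height was 1 at 84 peaks (80.8%, 71.9 to 87.8) and 75.8% of all, and its highest value was 5, at Sox4 and Irx2. The median log2 ratio, scaled to the sums of heights over all peaks and with a pseudocount of 1, was 0.21 for the families and for all peaks. Each listed peak is higher in Dnmt1-Dam, so this scaling takes out most of that excess. The value compares the families with the list and does not measure enrichment. Without scaling the family median was 2.17.

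In repeat and CpG context the intervals of the families each contained the share of all peaks. No repeat was named at 63 of 104 (60.6%, 50.5 to 70.0) and at 60.5% of all peaks. SINEs were named at 17 (16.3%, 9.82 to 24.9; all peaks 17.1%), LINEs at 9 (8.65%, 4.03 to 15.8; all peaks 8.18%) and LTR elements at 8 (7.69%, 3.38 to 14.6; all peaks 10.8%). CpG island context was given for 7 peaks (6.73%, 2.75 to 13.4), where 6.61% of all peaks had it. It was an island at Hoxc4, a shore at 3 peaks including those of Foxo1 and Sox1, and a shelf at Foxc1, Foxk1 and Irx5. None of these 7 was in a promoter.

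**Figure D5:**
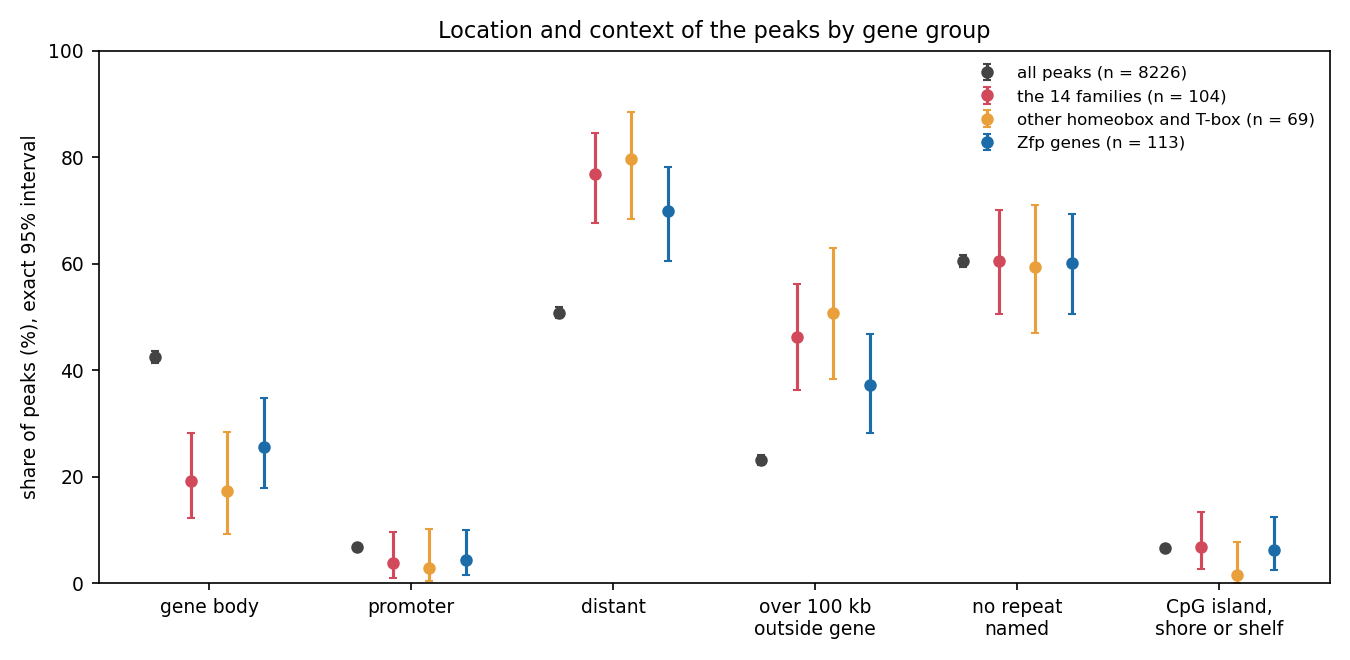
Share of peaks (%) by location and context with exact 95% intervals, for all peaks, the 14 families, a list of other homeobox and T-box genes, and Zfp genes. The families lie below all peaks for gene bodies and above for distant peaks, and next to them for repeats and CpG context.

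Distant peaks also made up most of the peaks of related genes outside the rule. A list of 89 other homeobox and T-box genes, of which 88 were in the RefSeq table, had a peak at 30 (34.1%, 24.3 to 45.0), with 69 peaks of which 79.7% (68.3 to 88.4) were distant. Zfhx3, a large homeobox and zinc finger gene, had the most and highest of them, with 10 peaks up to 29 against 6. Zfp genes, which encode zinc finger proteins, had a peak at 61 of 395 (15.4%, 12.0 to 19.4), an interval below that of the families (22.1 to 35.6), and 69.9% of their 113 peaks (60.6 to 78.2) were distant. The interval of this distant share overlaps the one of the families, so a high share of distant peaks was not seen in the 14 families alone. The 6 lineage genes left out had 13 peaks at Sox2, Sox7, Foxa2 and Tbx3, all distant, with heights from 7 to 16. Tbx3 had 6 of them, between -118 and -529 kb, more than any Tbx gene among the members.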

How the data were processed

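Genomic DNA of 1 Dnmt1-Dam library and 1 Dam-only library was profiled by DamID sequencing. The submitters' processing notes name CASAVA, BWA and genome build mm9. For the peak caller, thresholds and duplicates nothing is stated there. The deposited signal is 1 height per library at each of 8226 peak positions. The heights are whole numbers of unstated scaling and were read as signal, never as counts of reads. The total depth is unknown, so no interval was put on a single height.

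Peaks were taken by gene name, and the deposited location classes were used after recomputing them from the distances (8226 of 8226 matched). Proximal promoters ran from 3 kb upstream to 1 kb downstream, distal promoters from 10 kb to 3 kb upstream. Of 4903 transcript accessions, 4883 were matched to RefSeq genes (assembly GRCm38.p6), used for names and gene numbers only. Sequences came from RefSeq in that build. All 54 gene names were matched, and promoter windows were found for 37 of the genes. Shares have exact Clopper-Pearson and densities exact Poisson intervals at 95% (Python 3.11.15, scipy 1.17.1). Functions were tested on simulated data. No comparison between groups was tested.

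The genes described were those with a promoter or body peak, those with the most peaks and the highest peak of each family, the 10 highest peaks and those in CpG island context. Others were named to account for the members, and some items are not reported here by name. The members and lists were chosen with earlier results of these data known. Alternatives were height filters, 1 peak per 1 kb run, a Dam-only height of 1, other sources of gene names, a narrower assignment, other pseudocounts and no scaling.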

Additional observations from a re-analysis of the deposited data

How the results depend on the processing

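The number of family gene names with a peak, 54, went to 35 with heights of 9 or more, 5 with heights of 15 or more and 18 with peaks in the gene or within 10 kb, settings that keep fewer peaks by construction. These 18 are 9.68% of the 186 family genes (5.84 to 14.9), where 14.7% of all genes had a peak in the gene or within 10 kb. With heights of 15 or more, 6 family peaks were left, the shares in promoters, CpG context and LTR elements were 0% each and the LINE share was 16.7%. The density in gene bodies, 5.31 per Mb, became 3.18 with heights of 9 or more and 0.265 with heights of 15 or more. Without scaling the median log2 ratio was 2.17. The distant share stayed between 75% and 83.3% over the settings run for shares, and the body share between 16.7% and 21.4%. These ranges leave out the assignment in the gene or within 10 kb. It keeps 28 family peaks and removes most distant ones by construction. Fox genes with a peak went from 18 to 11 with heights of 9 or more and to 5 within 10 kb, Irx genes from 6 to 3 and 0, and the 1 Hox peak was lost in both. Naming all peaks by the RefSeq table and the settings for body density were chosen after seeing the data. No paired analysis was possible because each group is 1 library. The unknown depth and the listing of peaks above a minimum height limit what the absence of a peak can show.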

Other observations

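Some peaks belong to genes of these families but stand in the deposited table under another name or none. They were not counted above, except where RefSeq names are stated. Meis2, the close relative of Meis1, is named Mrg1 there and had 5 peaks on chromosome 2. Its body peaks were 23 against 2 at 150 kb, in DNA with no repeat named, and 9 against 1 at 140 kb. The 23 would be the second highest of the families, above the 22 of Meis1. Upstream, a pair 100 bp apart in a LINE at -122 kb was 8 against 1 and 7 against 1, and one at -282 kb was 8 against 1. Both Meis genes thus had 2 body peaks, 1 of them above 20, and a close pair between 120 and 130 kb upstream. Foxi3 had a peak of 7 against 1 at 10.7 kb, and the non-coding transcript Foxl2os had one of 11 against 1 in a SINE and a CpG island shore at 12.7 kb, both without a gene name in the table. With all 7 peaks added, 111 peaks carried 57 gene names, and 76.6% were distant.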
